A study of Rattus with 8 samples.

Results

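The reactive astrocyte genes described here are 8 of the 18374 genes in the deposited table, found by their symbols: Lcn2, Serpina3n, C3, Il1rl1, Osmr, S1pr3, Steap4 and Hspb1. They were chosen around Lcn2 and Il1rl1, selected on their rise with ultrasound against control in these same libraries, so that comparison is given only as a description. Polyadenylated RNA was sequenced on day 5 from rat neural stem cells in culture, which renew themselves and can form neurons and both kinds of macroglia, astrocytes and oligodendrocytes. The 4 groups of 2 libraries were untreated cells (control), cells cultured with a piezoelectric material (piezoelectric), cells treated with ultrasound (ultrasound) and cells grown with nanostickers, also piezoelectric (nanosticker). Such materials give off electric charge under mechanical force, for example that of an ultrasound wave. Ultrasound is not named in the label of the nanosticker group, and separate cultures are not named for the 2 libraries of any group, so p-values measure only the spread between these libraries and a share of it may be technical.

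Reactive astrocytes are astrocytes that change shape and gene expression after injury, infection or exposure to cytokines. In the rodent brain they raise secreted acute-phase proteins such as Lcn2 and Serpina3n, receptors for cytokines and lipids such as Osmr and S1pr3, and stress proteins such as Hspb1. Interleukin 6 family cytokines act through the shared receptor subunit Il6st and the transcription factor Stat3, and inflammatory cytokines act through NF-kappa B, and both routes are known to raise many of these genes. Genes of this kind are not restricted to astrocytes: Lcn2 is also a neutrophil granule protein, Il1rl1 is also a receptor of mast cells and lymphocytes, and C3 is also made by macrophages.

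Library totals lay between 15239133 and 15628667 reads assigned to genes, and 16497 to 16613 genes had a count above 0. All 8 genes passed the filter on low counts that left 14336 genes for testing, and all 8 had whole counts in each library. The labelled cell type was checked against 9 neural stem cell markers (Sox2, Nes, Pax6, Msi1, Hes1, Hes5, Prom1, Fabp7 and Vim), all of which passed the filter, with a sum of 6360 to 8897 CPM per library (counts scaled to library size by TMM factors). Most of that sum was Vim (5320 CPM in control), a gene of many cell types that is also counted below among the pan-reactive genes, while Sox2 had 281 CPM and Nes 354 CPM in control. Oligodendrocyte markers summed to 8480 to 26854 CPM, so these sums do not settle how much of the RNA came from stem cells. The 2 control libraries differed from each other along transcript length (Spearman correlation of their log ratio with effective length −0.480 over 12992 genes), against 0.105 to 0.207 within the other groups, and the calls of the 8 genes and of Gfap against control were therefore also made with either control library left out.

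Levels of different genes are compared per length, in the TPM values (scaled for transcript length and library) that the authors deposited, while all changes are from counts. Hspb1 had the highest level of the 8 genes in every group, with a mean of 342 ± 2.41 TPM in control and 1031 ± 48.8 TPM in nanosticker (SD, n = 2). That placed it at rank 428 of all genes in control and at rank 137 in nanosticker. S1pr3 came second in every group, between 116 ± 1.60 TPM in nanosticker and 198 ± 4.65 TPM in ultrasound. C3, Lcn2 and Osmr held the middle: in control C3 had 21.3 ± 3.94 TPM, Lcn2 had 21.3 ± 3.76 TPM and Osmr had 11.0 ± 0.0849 TPM, and C3 and Lcn2 did not differ there beyond their spread. Il1rl1, Serpina3n and Steap4 were low, with control levels of 0.875 ± 0.219, 0.555 ± 0.106 and 0.415 ± 0.0778 TPM. The order changed with the group. In ultrasound Lcn2 stood at 84.6 ± 5.33 TPM, above C3 at 29.5 ± 0.615 TPM, and in nanosticker Serpina3n stood at 4.75 ± 0.106 TPM, above Il1rl1 at 2.50 ± 0.997 TPM.

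Nanosticker against piezoelectric is the comparison that used neither library set by which the genes were chosen, and it is given first for most genes. The 8 genes and the lists below were still chosen with earlier results of these data known, so their counts are a description here too. In nanosticker against piezoelectric 5 of the 8 genes rose (Lcn2, Serpina3n, C3, Hspb1 and Osmr) and 1 fell (S1pr3) at an adjusted p under 0.05. The test was edgeR's quasi-likelihood test with Benjamini-Hochberg adjustment over all 14336 genes. Over all tested genes 18.9% rose and 17.4% fell in that comparison, so calls were common. The median log2 fold change of the 8 genes was 0.91, against 0.00 over all tested genes. Il1rl1 and Steap4 were not called.

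**Figure D1:**
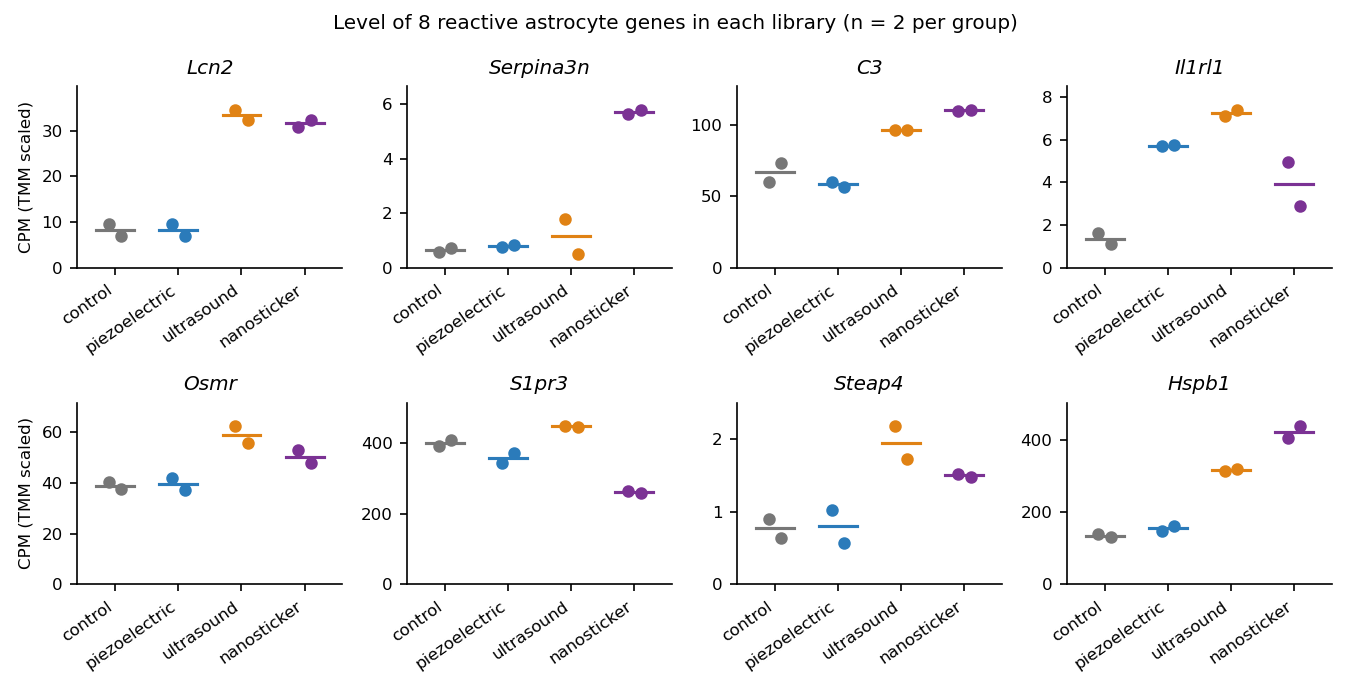
Level of each of the 8 genes in every library, in CPM scaled by TMM factors on a linear axis that starts at 0, with 1 point per library and a line at the mean of the 2 libraries of a group. Lcn2 is high in ultrasound and nanosticker, Serpina3n is high in nanosticker, Il1rl1 is lowest in control, and S1pr3 is lowest in nanosticker at 259 to 266 CPM.

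Among the secreted proteins, Lcn2 (gene ID 170496, Rnor 6.0 chromosome 3, 11414187 to 11417534, minus strand) encodes lipocalin 2, which binds iron-carrying siderophores and is among the most used markers of reactive astrocytes in rodents. Its level was 9.49 and 6.83 CPM in the control libraries, 9.55 and 6.89 CPM in the piezoelectric libraries, 34.6 and 32.3 CPM in the ultrasound libraries and 30.8 and 32.4 CPM in the nanosticker libraries, from 106 to 539 counts per library. The libraries formed 2 levels, with control and piezoelectric overlapping each other low and ultrasound and nanosticker overlapping each other high. Lcn2 rose 3.85-fold in nanosticker against piezoelectric (log2 fold change 1.94 ± 0.16, standard error, adjusted p = 4.50e-06 by edgeR). Nanosticker against ultrasound gave −0.08 ± 0.14 (adjusted p = 0.705 by edgeR), and piezoelectric against control gave 0.01 ± 0.18 (adjusted p = 0.994 by edgeR).

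Serpina3n (gene ID 24795, chromosome 6, 128073344 to 128080878, plus strand) encodes a secreted serine protease inhibitor and is likewise a common marker of reactive astrocytes in mouse. It had few counts: 9 and 11 in control, 12 and 13 in piezoelectric, 28 and 8 in ultrasound, and 85 and 86 in nanosticker. In CPM these were 0.581 and 0.708, 0.769 and 0.829, 1.80 and 0.511, and 5.63 and 5.80. Both nanosticker libraries lay above all 6 others, while the ultrasound libraries lay far apart, 1 above and 1 below the control and piezoelectric libraries. Serpina3n rose 7.09-fold in nanosticker against piezoelectric (log2 fold change 2.82 ± 0.41, adjusted p = 0.000184 by edgeR) and 4.93-fold against ultrasound (2.30 ± 0.38, adjusted p = 0.000632 by edgeR), the latter sharing the ultrasound libraries with the comparison by which the genes were chosen. On the log2(TPM + 1) scale, which shrinks low levels, the first of these was 1.77. Ultrasound against piezoelectric gave 0.52 ± 0.48 and was not called (adjusted p = 0.755 by edgeR), and it turned to −0.64 without ultrasound replicate 1.

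C3 (gene ID 24232, chromosome 9, 9721137 to 9747084, plus strand) encodes the central component of complement, cleaved by every route of complement activation. It had 60.5 and 73.2 CPM in control, 60.3 and 56.8 CPM in piezoelectric, 96.6 CPM in both ultrasound libraries, and 109.8 and 110.9 CPM in nanosticker. All ultrasound and nanosticker libraries lay above all control and piezoelectric libraries. C3 rose 1.89-fold in nanosticker against piezoelectric (log2 fold change 0.91 ± 0.08, adjusted p = 1.69e-06 by edgeR). Nanosticker libraries also lay above ultrasound libraries, by 0.19 ± 0.08, which did not pass the test (adjusted p = 0.0803 by edgeR).

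Among the receptors, Il1rl1 (gene ID 25556, chromosome 9, 47133483 to 47184316, plus strand) encodes ST2, the receptor of the alarmin interleukin 33. Its transcripts are known to code for a membrane receptor and for a secreted decoy that lacks the membrane anchor, and the table sums 7 transcripts, so these forms cannot be told apart. Il1rl1 had 1.61 and 1.09 CPM in control, 5.71 and 5.74 CPM in piezoelectric, 7.13 and 7.41 CPM in ultrasound, and 4.96 and 2.90 CPM in nanosticker, from 17 to 116 counts per library. No neighbouring groups overlapped in the order ultrasound, piezoelectric, nanosticker, control. Il1rl1 rose 4.21-fold in piezoelectric against control (log2 fold change 2.07 ± 0.27, adjusted p = 0.00554 by edgeR), a comparison that shares its control libraries with the one by which the genes were chosen. That call ended without piezoelectric replicate 1 (2.08, adjusted p = 0.0800) and without piezoelectric replicate 2 (2.07, adjusted p = 0.0836), where the fold change hardly moved and a single library stood for the group, and it ended in limma-voom (adjusted p = 0.0613) and on log2(TPM + 1) (adjusted p = 0.105). It held without control replicate 1 (2.38, adjusted p = 0.000347 by edgeR) and without control replicate 2 (1.82, adjusted p = 0.000533 by edgeR). Nanosticker against piezoelectric gave −0.54 ± 0.24 and was not called (adjusted p = 0.0985 by edgeR). It was called without nanosticker replicate 1 (−0.98) and without control replicate 1 or 2 (−0.54 in each). The control libraries enter that comparison only through the filter, the scaling, the adjustment and the estimate of spread.

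Osmr (gene ID 310132, chromosome 2, 56107491 to 56163522, minus strand) encodes the oncostatin M receptor subunit, which pairs with Il6st. It had 40.3 and 37.5 CPM in control, 42.0 and 37.0 CPM in piezoelectric, 62.4 and 55.6 CPM in ultrasound, and 53.0 and 47.8 CPM in nanosticker. Control and piezoelectric libraries overlapped, and the other 4 libraries lay above them. Osmr rose 1.27-fold in nanosticker against piezoelectric (log2 fold change 0.35 ± 0.09, adjusted p = 0.00825 by edgeR). The call ended without piezoelectric replicate 2 (0.26, adjusted p = 0.103), without nanosticker replicate 1 (0.28, adjusted p = 0.0937) and on log2(TPM + 1) (adjusted p = 0.147).

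S1pr3 (gene ID 306792, chromosome 17, 13799383 to 13812877, minus strand) encodes a G protein-coupled receptor of the lipid sphingosine 1-phosphate. It had 392 and 410 CPM in control, 346 and 372 CPM in piezoelectric, 449 and 447 CPM in ultrasound, and 266 and 259 CPM in nanosticker. No 2 groups overlapped. S1pr3 was lower in nanosticker than in piezoelectric by a log2 fold change of −0.45 ± 0.06 (adjusted p = 3.30e-05 by edgeR), and lower than in ultrasound by −0.77 ± 0.06 (adjusted p = 2.75e-07 by edgeR).

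Steap4 (gene ID 499991, chromosome 4, 23112682 to 23135354, plus strand) encodes a membrane metalloreductase that reduces iron and copper for uptake. It had 14 and 10 counts in control, 16 and 9 in piezoelectric, 34 and 27 in ultrasound and 23 and 22 in nanosticker, which are 0.904 and 0.644, 1.03 and 0.574, 2.18 and 1.72, and 1.52 and 1.48 CPM. Ultrasound and nanosticker libraries lay above the overlapping control and piezoelectric libraries. None of the 5 tested comparisons called Steap4. Nanosticker against piezoelectric gave 0.90 ± 0.37 (adjusted p = 0.0752 by edgeR), and ultrasound against piezoelectric gave 1.28 ± 0.36 (adjusted p = 0.0780 by edgeR). The latter was called in 4 alternative settings, with adjusted p from 0.0293 to 0.0452, so a difference was near the limit of what these counts can show.

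Hspb1 (gene ID 24471, chromosome 12, 23839390 to 23841051, minus strand) encodes a small heat shock protein that holds unfolded proteins and binds actin. It had 139 and 130 CPM in control, 149 and 160 CPM in piezoelectric, 313 and 321 CPM in ultrasound, and 404 and 438 CPM in nanosticker. The libraries rose from group to group in that order without overlap. Hspb1 rose 2.73-fold in nanosticker against piezoelectric (log2 fold change 1.45 ± 0.06, adjusted p = 2.85e-09 by edgeR) and 1.33-fold against ultrasound (0.41 ± 0.06, adjusted p = 0.000179 by edgeR). Piezoelectric against control gave 0.20 ± 0.06 and was not called (adjusted p = 0.337 by edgeR). That changed without control replicate 1, where Hspb1 had 0.25 (adjusted p = 0.0475) and C3 had −0.32 (adjusted p = 0.0144).

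The remaining comparisons share libraries with ultrasound against control, and their counts are read with that in mind. In piezoelectric against control only Il1rl1 was called, as 1 of 8 genes higher and 0 lower, where 0.160% of all tested genes rose and 0.0698% fell. At an unadjusted p under 0.05, edgeR also placed Hspb1 higher there and S1pr3 and C3 lower. In nanosticker against control 6 genes rose and S1pr3 fell, where 19.8% of all genes rose and 17.7% fell. The log2 fold changes there were 3.13 ± 0.42 for Serpina3n, 1.95 ± 0.16 for Lcn2, 1.65 ± 0.06 for Hspb1, 1.53 ± 0.28 for Il1rl1, 0.72 ± 0.08 for C3, 0.37 ± 0.09 for Osmr and −0.61 ± 0.06 for S1pr3, with edgeR adjusted p from 1.23e-09 to 0.00551. Of these, the call of Osmr ended without nanosticker replicate 1 (0.30, adjusted p = 0.0723) and on log2(TPM + 1) (adjusted p = 0.0763), and all 7 calls held with either control library left out.

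In ultrasound against piezoelectric 5 genes rose and 0 fell, where 2.13% of all tested genes rose and 1.37% fell. These were Lcn2 (log2 fold change 2.02 ± 0.16, adjusted p = 0.000106 by edgeR), Hspb1 (1.04 ± 0.06, adjusted p = 7.94e-06), C3 (0.72 ± 0.08, adjusted p = 0.000311), Osmr (0.58 ± 0.09, adjusted p = 0.00257) and S1pr3 (0.32 ± 0.06, adjusted p = 0.00496). The last 2 calls ended with a library left out, which leaves 1 library in a group, while the fold changes moved little. S1pr3 was not called without piezoelectric replicate 1 (0.27, adjusted p = 0.105), without ultrasound replicate 1 (0.32, adjusted p = 0.0940) or without ultrasound replicate 2 (0.32, adjusted p = 0.0906). Osmr was not called without piezoelectric replicate 2 (0.49, adjusted p = 0.0653) or without ultrasound replicate 1 (0.49, adjusted p = 0.0675). On log2(TPM + 1) the adjusted p of S1pr3 was 0.0829 and that of Osmr 0.0601. Il1rl1, which differed between piezoelectric and control, gave 0.34 ± 0.23 between ultrasound and piezoelectric (adjusted p = 0.614 by edgeR).

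In nanosticker against ultrasound 2 genes rose (Hspb1 and Serpina3n) and 2 fell (S1pr3 and Il1rl1), where 17.6% of all tested genes rose and 16.9% fell. The fall of Il1rl1 was −0.88 ± 0.24 (adjusted p = 0.0109 by edgeR). It was not called without ultrasound replicate 1 (−0.91, adjusted p = 0.0563), ultrasound replicate 2 (−0.86, adjusted p = 0.0700) or nanosticker replicate 2 (−0.55, adjusted p = 0.124), nor by DESeq2 (−0.88, adjusted p = 0.0673). The authors' deposited table also gives Il1rl1 a q-value of 0.0562 there, on the other side of 0.05 from the edgeR value.

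**Figure D2:**
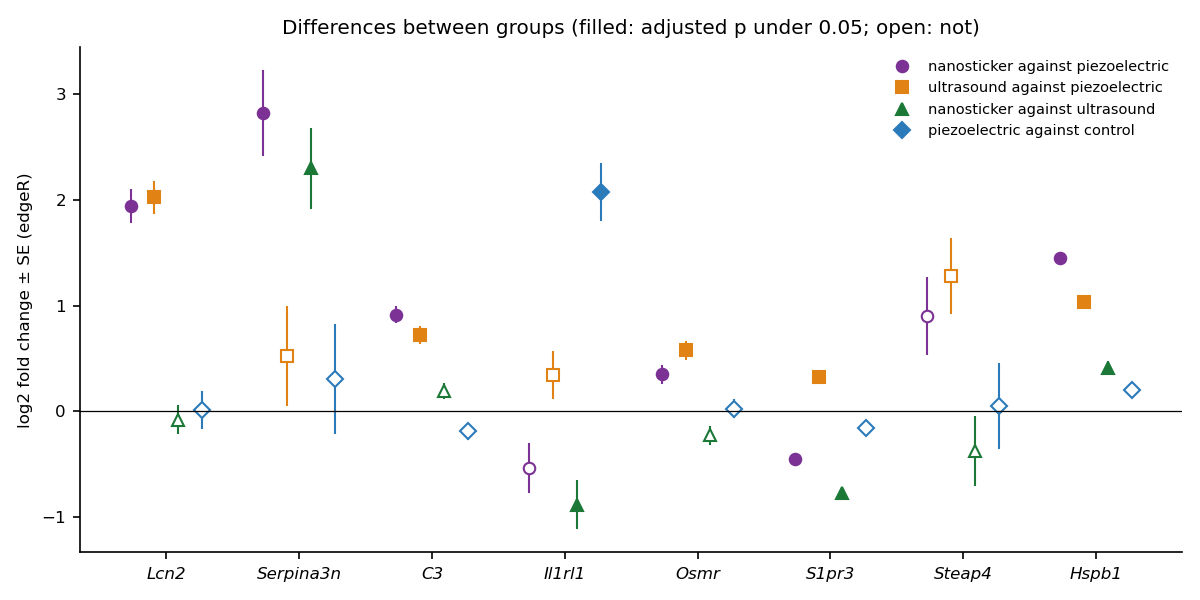
Log2 fold change of each gene in 4 comparisons, with bars of 1 standard error from edgeR, filled where the adjusted p is under 0.05. Lcn2 lies near 2 in nanosticker and ultrasound against piezoelectric and near 0 in the other 2 comparisons, while Il1rl1 is the only gene filled in piezoelectric against control, at 2.07.

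For description only, since the genes were chosen by it, ultrasound against control had all 8 genes above 0. The log2 fold changes were 2.42 for Il1rl1, 2.04 for Lcn2, 1.33 for Steap4, 1.24 for Hspb1, 0.83 for Serpina3n, 0.60 for Osmr, 0.53 for C3 and 0.16 for S1pr3. The value of Serpina3n came from ultrasound replicate 1 and was −0.33 without it. Over all tested genes 4.03% were called higher and 3.16% lower in that comparison, which says nothing of genes selected on it.

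Across the 8 libraries the genes did not share 1 profile. On log2 CPM, Pearson r between Osmr and Steap4 was 0.974, between Lcn2 and Steap4 0.951 and between Hspb1 and C3 0.933, as a description over libraries that share their groups. Il1rl1 had r from 0.0572 to 0.602 with the other 7 genes. S1pr3 and Serpina3n ran in opposite directions, with r of −0.817.

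The genes whose profile was most like each member were found among 1219 genes with whole counts, a mean of at least 5 CPM in a group and a range of at least 1 on the log2 scale. For Lcn2 they were Gpnmb (r = 0.998), which encodes a transmembrane glycoprotein of macrophages and glia, A3galt2 (r = 0.979) and the monocyte chemokine Ccl2 (r = 0.976). Gpnmb went from 51.0 CPM in control and 50.7 CPM in piezoelectric to 119 CPM in ultrasound and 112 CPM in nanosticker. Hspb1 was most like Bcl3, an NF-kappa B cofactor (r = 0.994), Cxcl14 (r = 0.993) and the immediate early gene Fos (r = 0.992). Sbno2 (r = 0.974) and Cd109 (r = 0.967) were among those most like C3. Osmr and Steap4 shared Grem1, a secreted antagonist of bone morphogenetic proteins (r = 0.976 and 0.959), and Aspg (r = 0.973 and 0.962). The third gene was Ptx3 (r = 0.954) for Osmr and Gpnmb (r = 0.956) for Steap4. Serpina3n was most like Slc37a1 (r = 0.978), Qprt (r = 0.976) and Thy1 (r = 0.974), and S1pr3 most like Osbpl3 (r = 0.969), Fosl1 (r = 0.968) and Tead2 (r = 0.966). The closest genes to Il1rl1 were less alike, with Pcare at 0.899, Itgb4 at 0.875 and Bgn at 0.870.

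Other genes that mark reactive astrocytes in mouse injury models were counted as lists. Of 13 pan-reactive genes, 6 of which are Lcn2, Serpina3n, Osmr, S1pr3, Steap4 and Hspb1, 8 rose and 2 fell in nanosticker against piezoelectric, with a median log2 fold change of 0.59 against 0.00 over all tested genes. Of all tested genes 18.9% rose and 17.4% fell there. Cp, the copper-carrying ferroxidase ceruloplasmin, went from 213 ± 11.5 CPM to 585 ± 21.6 CPM (1.46 ± 0.06, adjusted p = 1.47e-09 by edgeR). The others that rose were the hyaluronan receptor Cd44, the metalloproteinase inhibitor Timp1 and the asparaginase Aspg. Gfap, the intermediate filament by which reactive astrocytes are usually stained, fell together with S1pr3, from 2506 ± 138 CPM to 1075 ± 26.4 CPM (−1.22 ± 0.07, adjusted p = 2.02e-08 by edgeR).

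Gfap also separated the treatments in another way. It had 1520 ± 66.2 CPM in control, 2506 ± 138 CPM in piezoelectric and 2447 ± 195 CPM in ultrasound, and rose in piezoelectric against control (0.72 ± 0.07, adjusted p = 0.000460 by edgeR), with 0.77 without control replicate 1 and 0.68 without control replicate 2, both called. In ultrasound against piezoelectric, where 2.13% of all tested genes rose and 1.37% fell, Gfap gave −0.03 ± 0.07 (adjusted p = 0.916 by edgeR). There 10 of the 13 pan-reactive genes rose and 0 fell. Lcn2, Hspb1, Osmr and S1pr3 are among the 10. Here and for the lists below, this comparison and nanosticker against ultrasound share the ultrasound libraries by which the genes were chosen. The chemokine gene Cxcl10 was also among the 10, with 2.56 ± 0.281 CPM in piezoelectric, 7.68 ± 0.0631 CPM in ultrasound and 2.47 ± 0.251 CPM in nanosticker. In nanosticker against ultrasound 4 of the 13 rose and 5 fell, beside 17.6% and 16.9% of all tested genes. Cxcl10 was among those of the list that fell (−1.63 ± 0.19, adjusted p = 2.38e-05 by edgeR).

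Reactive astrocytes in mouse have also been divided into an A1 list, seen after endotoxin and including C3, and an A2 list, seen after ischaemia. In nanosticker against piezoelectric 5 of 8 tested A1 genes rose and 1 fell, and 6 of 9 tested A2 genes rose and 1 fell. The median log2 fold changes of these lists were 0.48 and 0.64. Of all tested genes 18.9% rose and 17.4% fell there. Beside C3, the A1 genes that rose included the complement inhibitor Serping1 (27.2 ± 1.24 to 45.8 ± 3.51 CPM, log2 fold change 0.76 ± 0.08), the immunophilin Fkbp5 (0.69 ± 0.07) and the elastic fibre protein Fbln5 (0.73 ± 0.10), with edgeR adjusted p from 8.25e-06 to 6.14e-05. The A1 gene that fell, the immunoproteasome subunit Psmb8, has counts that are not whole and its call is uncertain. Among A2 genes the membrane protein Emp1 rose from 16.4 ± 2.28 to 33.3 ± 1.34 CPM (1.02 ± 0.12, adjusted p = 3.41e-05 by edgeR) and Cd109, an inhibitor of transforming growth factor beta signalling, rose by 1.00 ± 0.13 (adjusted p = 6.19e-05). The glycosyltransferase gene B3gnt5 fell (−1.92 ± 0.34, adjusted p = 0.000670 by edgeR). Between ultrasound and piezoelectric, 3 of the 8 A1 genes and 5 of the 9 A2 genes rose in ultrasound, and 0 of either list fell. Of all tested genes 2.13% rose and 1.37% fell there. Among the A2 calls, that of Sphk1 ended in 9 alternative settings, DESeq2 among them (adjusted p = 0.328), and that of Cd109 in 4.

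**Figure D3:**
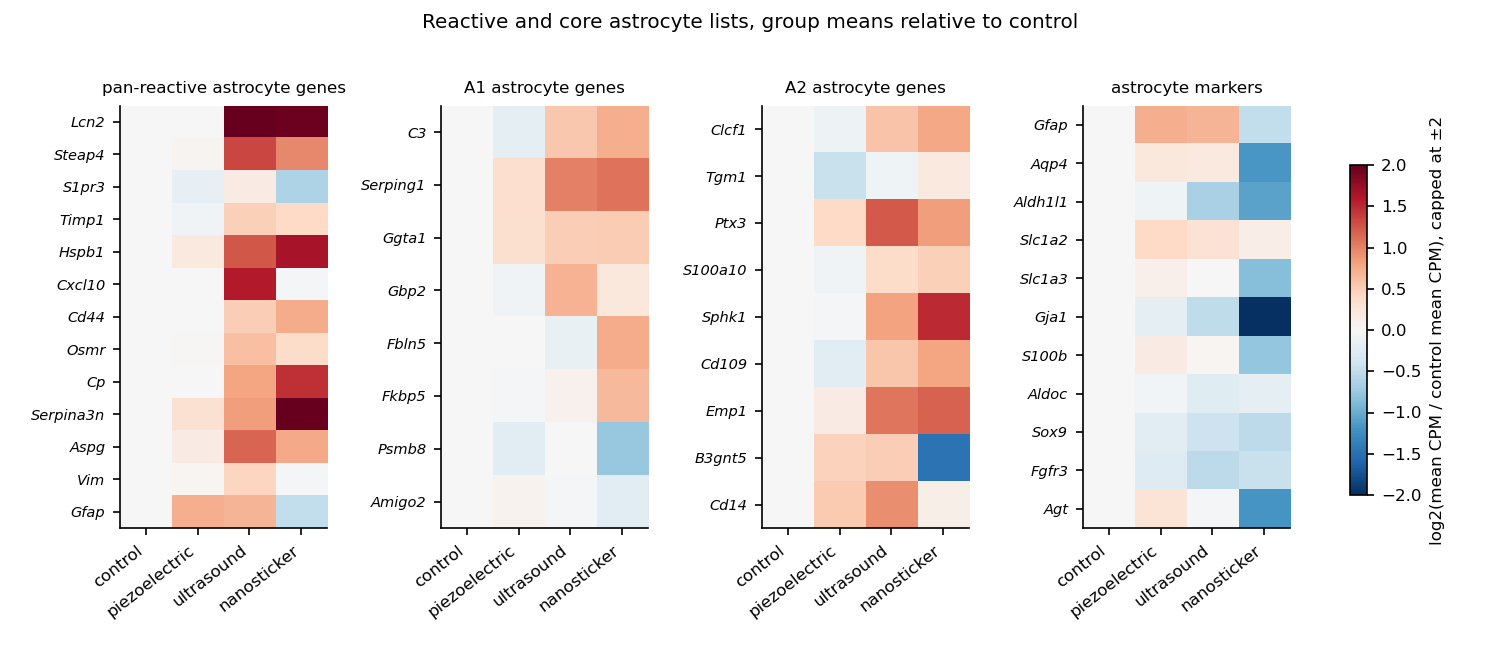
Group mean of each tested gene of the pan-reactive, A1, A2 and core astrocyte lists as log2 of the ratio of its mean CPM to that of control, coloured from blue (lower) to red (higher) and capped at 2 on either side. Lcn2 is at the cap in ultrasound and just below it in nanosticker, and Serpina3n is at the cap in nanosticker, while most core astrocyte genes are blue in nanosticker.

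Core astrocyte markers did not follow the reactive genes. In nanosticker against piezoelectric, where 18.9% of all tested genes rose and 17.4% fell, 0 of 11 tested markers rose and 9 fell. Their median log2 fold change was −0.95. Their summed level was 6784 to 7041 CPM in control, 8128 to 8405 CPM in piezoelectric, 7603 to 7918 CPM in ultrasound and 3973 to 3982 CPM in nanosticker, and no matched marker was at 0 in all libraries. The water channel gene Aqp4 went from 1915 ± 59.4 CPM in piezoelectric to 733 ± 37.3 CPM in nanosticker, and the gap junction gene Gja1 from 513 ± 9.14 to 146 ± 0.693 CPM. Oligodendrocyte markers moved the other way, with 9 of 10 higher and 0 lower in the same comparison and a sum of 8575 to 8687 CPM in piezoelectric and 26495 to 26854 CPM in nanosticker. Their sum was 8480 to 8556 CPM in control and 10652 to 10888 CPM in ultrasound. The part of these shifts in the changes of Lcn2, Serpina3n, C3, Hspb1, Osmr and S1pr3 was not tested. In bulk RNA, fewer cells of a type and less RNA per cell cannot be told apart.

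In nanosticker against piezoelectric, where 18.9% of all genes rose and 17.4% fell, 0 of 14 tested microglia and macrophage markers rose and 10 fell. Their sum was 31.7 to 40.0 CPM in control, 24.9 to 25.6 CPM in piezoelectric, 31.9 to 36.7 CPM in ultrasound and 6.54 to 6.88 CPM in nanosticker, and no matched marker was at 0 in all libraries. Their part in the change of C3 was not tested. Against piezoelectric, ultrasound had 0 of the 14 called in either direction by edgeR, DESeq2 or limma-voom (3 at an unadjusted p under 0.05). Their median log2 fold change there was 0.43, against 0.00 over all tested genes, and their sums were higher in ultrasound without overlap. Lcn2 and C3 rose in the same comparison, and the part of these markers in that was not tested. Neutrophil markers, the relevant ones for Lcn2, were near 0: 8 of 10 matched the table, 1 passed the filter, and their sum was 1.03 to 1.68 CPM over all 8 libraries, with S100a8 at 0.0967 CPM or less in every group mean. No matched neutrophil marker was at 0 in all libraries.

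Mast cells and lymphocytes are the other cells named above for Il1rl1, which need not be all. Of 9 mast cell markers 3 matched the table (Kit, Hdc and Mcpt1), and their sum, nearly all of it Kit, was 22.5 to 26.7 CPM in control and 25.3 to 26.1 CPM in piezoelectric. Mcpt1, a mast cell protease, was at 0 in both control and both nanosticker libraries. Of 7 T lymphocyte markers 3 matched the table (Cd4, Cd8a and Gata3), and Cd4 was the 1 that passed the filter. They summed to 2.19 to 3.42 CPM in control and 1.40 to 1.47 CPM in piezoelectric. The part of mast cells and lymphocytes in the rise of Il1rl1 was not tested. Fibroblast and meningeal markers moved with Il1rl1 in piezoelectric against control: 4 of 12 tested rose (Col3a1, Col1a1, Postn and Igf2) and 0 fell. Of all tested genes 0.160% rose and 0.0698% fell there. The list summed to 831 to 983 CPM in control, 1071 to 1105 CPM in piezoelectric, 1052 to 1067 CPM in ultrasound and 1186 to 1214 CPM in nanosticker. The same 4 were called with control replicate 1 left out, and 7 with control replicate 2 left out. Choroid plexus and ependymal markers moved there too: 2 of 8 tested rose (Ttr and Aqp1) and 0 fell, with a sum of 94.6 to 101 CPM in control, 155 to 180 CPM in piezoelectric, 121 to 123 CPM in ultrasound and 74.6 to 78.6 CPM in nanosticker. No matched marker of either list was at 0 in all libraries, and their part in the rise of Il1rl1 was not tested.

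**Figure D4:**
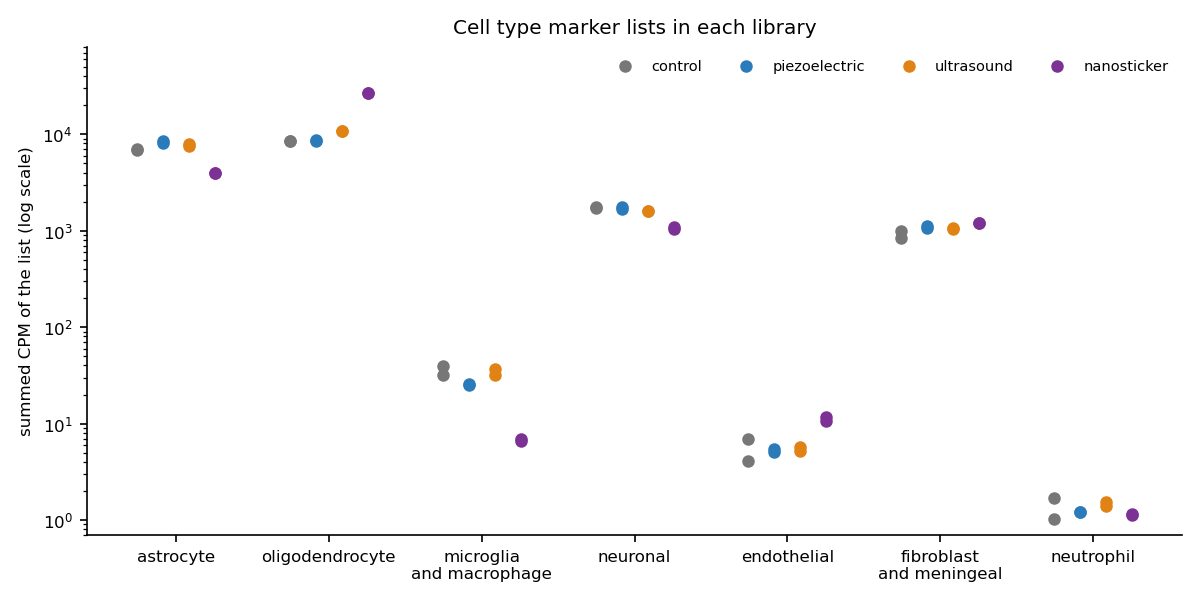
Summed CPM of 7 cell type marker lists in each library, on a log axis, coloured by group. In nanosticker the astrocyte sum is lowest at 3973 to 3982 CPM and the oligodendrocyte sum highest at 26495 to 26854 CPM, and the neutrophil sum stays between 1.03 and 1.68 CPM in all libraries.

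The partners of the receptors were given in each group whatever they did. Il1rap, the coreceptor that ST2 needs to signal, had 28.8 ± 2.36 CPM in control, 30.3 ± 0.208 CPM in piezoelectric, 31.3 ± 2.74 CPM in ultrasound and 66.6 ± 2.62 CPM in nanosticker. It rose in nanosticker against piezoelectric (log2 fold change 1.14 ± 0.08, adjusted p = 2.66e-07 by edgeR), where Il1rl1 was not called. The ligand gene Il33 had 18.7 ± 1.08, 18.1 ± 0.0253, 12.7 ± 0.498 and 13.5 ± 0.956 CPM in the same order of groups. Il33 fell in nanosticker against piezoelectric (−0.43 ± 0.11, adjusted p = 0.00683 by edgeR), a call that ended without nanosticker replicate 2 (−0.35, adjusted p = 0.0725) and in DESeq2 (adjusted p = 0.0861). Of the 8 tested genes of interleukin 33 signalling, 1 rose and 2 fell in that comparison, beside 18.9% and 17.4% of all tested genes. The other of the list that fell was the adaptor gene Myd88 (−0.36 ± 0.08, adjusted p = 0.00405 by edgeR). Its call ended without nanosticker replicate 1 (−0.30) and in DESeq2 (adjusted p = 0.0570).

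Around Osmr, the ligand gene Osm had 1 to 5 counts per group in all and was not tested. The related ligand gene Lif had 3.09 ± 0.00579 CPM in control, 4.57 ± 0.118 CPM in piezoelectric, 7.43 ± 1.11 CPM in ultrasound and 6.98 ± 0.0497 CPM in nanosticker. Lif rose in nanosticker against piezoelectric (log2 fold change 0.61 ± 0.17, adjusted p = 0.0125 by edgeR), a call that ended without any 1 of the 4 libraries compared (0.58 to 0.63, adjusted p from 0.0580 to 0.0804), in DESeq2 (adjusted p = 0.163) and on log2(TPM + 1) (0.42, adjusted p = 0.213). Il6st gave 0.01 ± 0.07 there (adjusted p = 0.923), from 344 ± 17.8 CPM in piezoelectric and 347 ± 5.14 CPM in nanosticker. Lifr, the receptor subunit of Lif, gave 0.19 ± 0.30 (adjusted p = 0.685). In nanosticker against control Lifr was not called by edgeR (adjusted p = 0.187) but was called by limma-voom (0.69, adjusted p = 0.0332).

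Of 18 tested genes of interleukin 6 family signalling, which include Osmr and other receptors and ligands, 10 rose and 2 fell in nanosticker against piezoelectric, beside 18.9% and 17.4% of all tested genes. Their median log2 fold change was 0.32. Socs3, the feedback inhibitor that Stat3 induces, had 24.6 ± 3.92 CPM in control, 26.6 ± 2.23 CPM in piezoelectric, 48.0 ± 0.126 CPM in ultrasound and 92.4 ± 2.33 CPM in nanosticker. Its log2 fold change in nanosticker against piezoelectric was 1.79 ± 0.10 (adjusted p = 1.90e-08 by edgeR). Bcl3 rose by 1.34 ± 0.10 (adjusted p = 2.20e-07) and Stat3 itself by 0.29 ± 0.05 (adjusted p = 0.000854), as did the kinase gene Tyk2 by 0.44 ± 0.08 (adjusted p = 0.000875). In ultrasound against piezoelectric 7 of the 18 rose and 0 fell, beside 2.13% and 1.37% of all tested genes. Bcl3 gave 0.92 ± 0.10 (adjusted p = 0.000204 by edgeR) and Socs3 0.85 ± 0.10 (adjusted p = 0.000374) there. On log2(TPM + 1) that call of Socs3 ended (adjusted p = 0.0962). Of the others among the 7, the call of Lif ended in 10 alternative settings, DESeq2 among them (adjusted p = 0.465). That of Osmr ended in 3 and that of Cebpd in 2. In piezoelectric against control 0 of the 18 were called by edgeR, DESeq2 or limma-voom with all 8 libraries (2 at an unadjusted p under 0.05). Values there depended on the control libraries. Lifr ranged from 0.07 to 0.96 and Il6st from −0.03 to 0.18 over the alternatives, both highest without control replicate 2.

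Of 11 tested NF-kappa B inflammatory genes, 4 rose and 1 fell in nanosticker against piezoelectric, beside 18.9% and 17.4% of all tested genes. Ccl2 had 2.75 ± 0.0107 CPM in piezoelectric and 10.5 ± 0.145 CPM in nanosticker (a rise of 1.93 ± 0.16 on the log2 scale, adjusted p = 1.16e-06 by edgeR), the adhesion molecule gene Icam1 by 0.86 ± 0.11 (adjusted p = 3.30e-05) and the chemokine gene Cxcl1 by 1.66 ± 0.30 (adjusted p = 0.000788). The fall of Vcam1 was −1.39 ± 0.06 (adjusted p = 2.03e-09 by edgeR), and −1.45 to −1.36 under the alternatives. It remains uncertain in that its counts are not whole, which these alternatives do not address. Ultrasound against piezoelectric had 5 of the 11 higher and 0 lower, beside 2.13% and 1.37% of all tested genes. Ccl2 gave 1.93 ± 0.16 (adjusted p = 5.52e-05 by edgeR) and Cxcl1 2.09 ± 0.29 (adjusted p = 0.00131) there. The calls of Nfkbia, Icam1 and Cebpd each ended in 2 settings with a library left out. In nanosticker against ultrasound 0 rose and 4 fell, beside 17.6% and 16.9% of all tested genes. Among the 4 was Nfkbia, the inhibitor that NF-kappa B induces against itself, with 86.1 ± 4.56 CPM in ultrasound and 58.0 ± 1.46 CPM in nanosticker (−0.57 ± 0.08, adjusted p = 0.000179 by edgeR). The others were Vcam1, Relb and Nfkbiz. The call of Relb ended in 3 alternative settings and that of Nfkbiz in 4, DESeq2 among them for both (adjusted p = 0.0891 and 0.248).

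Around C3, the complement list fell more often than it rose. In nanosticker against piezoelectric 3 of 18 tested genes rose (C3, Serping1 and C1s) and 7 fell, beside 18.9% and 17.4% of all tested genes. The median of the list was −0.22. C1qc, a subunit of C1q made by microglia, went from 3.55 ± 0.692 to 0.234 ± 0.0503 CPM (−3.88 ± 0.34, adjusted p = 1.53e-06 by edgeR). C1qa, C1qb and C1qc are also among the microglia markers that fell, so their falls are counted in both lists. The membrane regulator gene Cd59 fell by a log2 fold change of −1.08 ± 0.07 (adjusted p = 9.88e-08) and the secreted chaperone gene Clu by −0.87 ± 0.06 (adjusted p = 2.73e-07). C3ar1, the receptor of the C3a fragment and a gene of microglia, had 17 counts in the 2 piezoelectric libraries and 1 count in the 2 nanosticker libraries. Its fall was called by edgeR (adjusted p = 0.00370) and not by DESeq2 (adjusted p = 0.0654). Between ultrasound and piezoelectric the same 3 genes, C3, Serping1 and C1s, rose in ultrasound and 0 fell, beside 2.13% and 1.37% of all tested genes.

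Around S1pr3, the receptors of sphingosine 1-phosphate went in both directions. In nanosticker against piezoelectric S1pr1 fell from 178 ± 3.81 to 145 ± 2.01 CPM (−0.30 ± 0.05, adjusted p = 0.000650 by edgeR). S1pr2 rose from 8.34 ± 0.103 to 19.1 ± 0.204 CPM (1.19 ± 0.12, adjusted p = 4.79e-06 by edgeR). S1pr5, a receptor known from oligodendrocytes, rose from 11.2 ± 0.680 to 51.0 ± 2.89 CPM (2.19 ± 0.11, adjusted p = 8.10e-09 by edgeR), as oligodendrocyte markers rose. Sphk1, the kinase that makes the ligand, rose from 3.01 ± 0.0117 to 8.62 ± 0.586 CPM (1.52 ± 0.18, adjusted p = 2.06e-05 by edgeR). The lipid phosphatase gene Plpp3 fell from 570 ± 17.7 to 260 ± 2.63 CPM (−1.13 ± 0.05, adjusted p = 5.51e-09 by edgeR). Of the 10 tested genes of the list, 4 rose and 3 fell there, S1pr3 itself among the 3, beside 18.9% and 17.4% of all tested genes.

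Of 11 tested small heat shock and heat shock response genes, Hspb1 was the 1 called higher in nanosticker against piezoelectric, and 4 fell. In that comparison 18.9% of all tested genes rose and 17.4% fell. Those of the list that fell were Hspb8 (log2 fold change −0.38 ± 0.06, adjusted p = 0.000300 by edgeR), Cryab, which encodes alpha-B crystallin (−0.48 ± 0.08, adjusted p = 0.000306), Bag3 and Hspb6. The call of Bag3 (−0.22 ± 0.06, adjusted p = 0.00853) ended without piezoelectric replicate 2 (adjusted p = 0.0956), nanosticker replicate 1 (adjusted p = 0.0701) or nanosticker replicate 2 (adjusted p = 0.0508). Cryab had 154 ± 9.95 CPM in control, 125 ± 13.8 CPM in piezoelectric, 104 ± 3.34 CPM in ultrasound and 90.1 ± 0.608 CPM in nanosticker, an order opposite to that of Hspb1. Ultrasound against piezoelectric, where 2.13% of all tested genes rose and 1.37% fell, had Hspb1 and Hspb6 called higher and 0 lower. That call of Hspb6 (0.29 ± 0.07, adjusted p = 0.0365 by edgeR) ended in 9 alternative settings, among them the replicate block (adjusted p = 0.0574) and DESeq2 (adjusted p = 0.276).

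Of 12 tested genes of the Steap family and iron uptake, Lcn2 and Steap4 included, 3 rose and 3 fell in nanosticker against piezoelectric, beside 18.9% and 17.4% of all tested genes. Those that rose were Lcn2, Slc22a17 and Ftl1. Hmox1, the haem-degrading oxygenase, fell to 150 ± 0.0850 CPM from 247 ± 15.2 CPM (−0.72 ± 0.06, adjusted p = 1.80e-06 by edgeR), and the transferrin receptor gene Tfrc by a log2 fold change of −0.38 ± 0.07 (adjusted p = 0.00113). Slc22a17, described as a receptor of Lcn2, had 893 ± 15.2 CPM in piezoelectric and 1018 ± 73.0 CPM in nanosticker (0.19 ± 0.06, adjusted p = 0.0231 by edgeR), a call that ended in 7 alternative settings, among them library size alone (adjusted p = 0.0858), without nanosticker replicate 2 (0.11, adjusted p = 0.264), without piezoelectric replicate 1 (adjusted p = 0.145) and without piezoelectric replicate 2 (adjusted p = 0.0808). Lrp2, a large endocytic receptor that also takes up Lcn2, had 54.2 ± 0.391 CPM in piezoelectric, 30.3 ± 0.0729 CPM in ultrasound and 31.1 ± 2.33 CPM in nanosticker, and fell in nanosticker against piezoelectric (−0.80 ± 0.15, adjusted p = 0.00459 by edgeR). Of the other Steap genes, Steap1, Steap2 and Steap3 were not called in that comparison (adjusted p = 0.0966, 0.507 and 0.0647 by edgeR). Of 12 clade A serpin symbols 2 matched the table, and Serpina3n was the 1 that passed the filter.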

How the data were processed

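The 8 libraries of rat neural stem cell RNA, all from day 5, form 4 groups of 2, with groups and replicate numbers from the labels. Per the labels' protocols, polyadenylated RNA was enriched with oligo(dT), fragmented, reverse transcribed with random hexamers and sequenced as DNA nanoballs. The authors deposited 1 gene table with expected counts, FPKM and TPM per library, per the file headers. Of the counts 10.5% are not whole at a tolerance of 0.005. FPKM values deposited by the authors served only to derive effective lengths. The log2 fold changes, p-values and q-values deposited by the authors are their DESeq2 results, per the file headers. Coordinates are copied from the table, and the submitters' processing notes name the build Rnor 6.0. No aligner, counting tool or strand setting is named (not given in the sources used here), and reads of overlapping genes cannot be separated. Of the gene IDs, 93.2% were found in a RefSeq table of another assembly, used for names only.

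Expected counts were rounded and fitted with edgeR 4.0.16 in R 4.3.3 (filterByExpr, TMM factors, robust quasi-likelihood fit, 1 mean per group over all 8 libraries), with 4 residual degrees of freedom and 7.09% biological coefficient of variation. Tests were two-sided, adjusted over 14336 genes, with a threshold of 0.05, and the standard error is the log2 fold change divided by the square root of F. The edgeR steps were tested on simulated data. Profiles were compared on log2 CPM with a prior count of 2. The genes and the 23 lists were chosen with earlier results of these data known. Named are the 8 genes, up to 4 called genes of smallest adjusted p per list and comparison of those described, the 3 genes most like each member, and the partners Il33, Il1rap, Osm, Lif, Il6st, Lifr, Sphk1, C3ar1, Slc22a17 and Gfap. Other genes listed as members of a count, and marker genes, Hspb6, Bag3, S1pr1, Lrp2, Steap1, Steap2, Steap3, Cd44, Timp1, Aspg and Cryab across groups, were added after their values were seen. Several genes selected by the rule, mostly in nanosticker against ultrasound, are left out of the text. Of 259 list symbols 235 matched. Alternatives were DESeq2 1.42.0, limma-voom (limma 3.58.1), relative log expression factors, library size alone, no filter, a stricter filter (mean count of 20, and 1 CPM in 2 libraries), the replicate block, only the groups compared, removal of the trend along length (lowess, span 0.3), whole counts only, log2(TPM + 1) in limma, and each library left out in turn.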

Additional observations from a re-analysis of the deposited data

How the results depend on the processing

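The count of genes called of the 8 stayed within 1.5 times its value in nanosticker against piezoelectric, control and ultrasound under every alternative run. In piezoelectric against control the count of 1 became 0 in limma-voom, 0 on log2(TPM + 1), and 0 to 3 with each library left out. In ultrasound against piezoelectric the count of 5 became 3 on log2(TPM + 1), and 3 to 6 with each library left out. In ultrasound against control Serpina3n, 0.83, ranged from −0.33 to 1.47 with each library left out, and was −0.33 without ultrasound replicate 1. Over the 8 genes and 5 tested comparisons, 725 alternative values stayed on the same side of the threshold, 20 lost a call and 21 gained one, and no called value changed sign. The gains not given above are those of C3 in nanosticker against ultrasound in 5 settings (lowest adjusted p 0.00287) and of Osmr there in 7 (lowest adjusted p 0.0154). No paired design is stated: same-numbered libraries deviated together with correlations from −0.136 to 0.135, and the replicate block left 1 gene called in piezoelectric against control and 5 in ultrasound against piezoelectric. With crossed numbers, added after seeing the data, 7 of the 8 were called in nanosticker against control and 4 in nanosticker against ultrasound.

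Counts over all genes moved further. In piezoelectric against control 33 genes were called, with 6 to 1131 under the alternatives, in ultrasound against piezoelectric 502 (157 to 1214), in ultrasound against control 1031 (377 to 2192), and in nanosticker against ultrasound 4938 (3199 without ultrasound replicate 1 and 3259 in DESeq2). Library size alone turned the split of higher and lower calls in nanosticker against piezoelectric from 2713 and 2499 to 2273 and 3045, against control from 2837 and 2541 to 2277 and 3221, and against ultrasound from 2517 and 2421 to 2121 and 2920. Of the called list genes examined, 29 of 35 kept their call under all alternatives in nanosticker against piezoelectric and 11 of 21 in ultrasound against piezoelectric. The cause of these moves was not tested. Steap4 has no value with the length trend removed or under the stricter filter. With about 10 to 30 counts per library, Serpina3n and Steap4 outside nanosticker are limited by depth.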
